A study of Mus musculus with 20 samples.

Results

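Neutrophil granule transcripts were followed through 5 populations of osteoblastic cells sorted from mouse bone, a material in which blood cells were meant to be left out. The transcripts were all 10 of Mpo, Elane, Ltf, Camp, Ngp, Fcnb, Chil3, Mmp8, S100a8 and S100a9, taken by gene symbol from the authors' filtered expression table. All 10 were found, on 16 probe sets, among the 9129 named genes of that table. The choice used no measured value of these arrays, but it was made with earlier results from them known.

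The cells came directly from untreated male wild-type C57BL6 mice aged 8 weeks, with no culture step. Every group was negative for blood lineage markers (Lin) and CD31 and positive for CD51, the alpha-v integrin chain. Group A was Sca-1-, PDGFRa+ and PDGFRb-, group AB was Sca-1- and positive for both PDGF receptors, and group B was Sca-1-, PDGFRa- and PDGFRb+. Group DN was Sca-1- and PDGFRa-, and group SL was Sca-1 low and PDGFRa-. The sign of the PDGFRb gate is unclear in the titles of DN and SL, so DN is taken as double negative from its code only. Each group had 4 arrays numbered 1 to 4. The labels do not say what a replicate number stands for or whether the arrays of a group came from different mice. The p-values therefore speak of array-to-array spread, which may be technical.

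Levels are log2 of the normalized array signal. They compare arrays for 1 gene but do not rank genes against each other. Differences are log2 ± SE from limma over all 20 arrays with n = 4 per group, and a gene was called at an adjusted p under 0.05 after Benjamini-Hochberg adjustment over the 9129 genes. The number of arrays limits the precision, and array medians lay between 6.39 and 6.47. Osteoblast transcripts such as Col1a1, Runx2 and Sp7 were measured throughout, and the summed intensity of 11 osteoblast genes lay between 36801 and 46921 on all arrays. Some arrays stood against their gate. Ly6a, which encodes Sca-1, was at 7.01 and 7.10 on B replicates 1 and 2 but at 10.18 and 10.90 on B replicates 3 and 4. AB replicates 3 and 4 were at 8.72 and 10.05 beside 7.09 and 7.24 on replicates 1 and 2, and the 4 SL arrays lay between 10.30 and 10.79. Pdgfra was highest in SL, at 10.10 to 10.34, a group gated as PDGFRa-. B, also gated as PDGFRa-, had a mean of 9.03 (8.63 to 9.54), beside 9.01 in the PDGFRa+ group A and 7.87 in DN. Counts of members that rest on B are therefore also given without B and AB replicates 3 and 4. This alternative was chosen after the data were seen and was not run for the marker lists.

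Neutrophils mature in the bone marrow and fill their granules in sequence. Promyelocytes make the primary granule proteins, myelocytes the secondary granule proteins, and later stages the tertiary granule proteins, so the transcripts of each class mark a stage of the lineage. Mature neutrophils in blood carry the proteins but have largely shut off the granule genes, and bone marrow is the usual place where their mRNA is found. In bulk RNA of sorted cells, fewer cells of a type and less RNA per cell cannot be told apart.

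Mpo encodes myeloperoxidase, which makes hypochlorous acid, and Elane encodes neutrophil elastase. Both are primary granule genes. Ltf encodes the iron-binding lactoferrin, Camp the cathelicidin antimicrobial peptide and Ngp a granule protein related to cystatins, all of the secondary granule. Mmp8 encodes the neutrophil collagenase. Chil3 encodes the chitinase-like protein Ym1 of mouse myeloid cells, and Fcnb encodes ficolin B, a lectin of myeloid cells that starts complement activation. S100a8 and S100a9 encode the subunits of calprotectin, calcium-binding proteins of the neutrophil cytosol.

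Several members are neighbours in the genome. In the authors' deposited comparison tables, which do not name a build, Camp lay on chromosome 9 at 109847379 to 109849617, Ngp at 110419747 to 110423012 and Ltf at 111019271 to 111042767. Mmp8 was on the same chromosome at 7558429 to 7568486. S100a8 (90668978 to 90670035) and S100a9 (90692632 to 90695721) were adjacent on chromosome 3, which also held Chil3 at 106147554 to 106167564. Mpo was on chromosome 11 at 87793581 to 87804413, Elane on chromosome 10 at 79886312 to 79888216 and Fcnb on chromosome 2 at 28076378 to 28084885.

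The members moved together across arrays, so the 250 bases before the RefSeq start of each gene were searched on both strands for letters of 3 motifs that granulocyte factors are known to bind. These were TTNNGNAA for the C/EBP family, GAGGAAG for PU.1 and TGTGGT for RUNX factors, and no matches overlapped in the members. The C/EBP letters were in 7 of 10 member promoters (all but Mpo, Elane and Camp) and in 36.8% of the 32851 promoters of the RefSeq table. The PU.1 letters were in 4 (Mpo, Elane, Mmp8 and S100a8) and in 10.6% of all promoters, and the RUNX letters in S100a9 and in 14.0% of all promoters. A match is a description of letters and not a binding site. The promoters below, from RefSeq on GRCm38.p6, show a primary granule gene with the PU.1 letters only, a gene with both kinds of match, and a pair with several C/EBP matches. They are written 5′ to 3′ on the gene's strand, with the matches in capitals.
Elane, chr10:79886062-79886311, plus strand: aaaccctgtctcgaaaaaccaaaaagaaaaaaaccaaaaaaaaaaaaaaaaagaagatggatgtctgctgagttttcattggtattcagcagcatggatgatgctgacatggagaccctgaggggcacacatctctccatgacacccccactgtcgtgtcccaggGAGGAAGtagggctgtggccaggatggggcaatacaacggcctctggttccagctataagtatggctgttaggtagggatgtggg
Mmp8, chr9:7558179-7558428, plus strand: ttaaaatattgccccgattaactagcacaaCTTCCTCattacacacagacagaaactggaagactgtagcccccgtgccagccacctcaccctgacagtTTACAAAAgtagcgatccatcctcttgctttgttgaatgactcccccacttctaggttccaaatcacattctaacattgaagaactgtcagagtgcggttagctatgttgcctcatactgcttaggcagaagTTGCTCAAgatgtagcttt
Chil3, chr3:106167565-106167814, minus strand: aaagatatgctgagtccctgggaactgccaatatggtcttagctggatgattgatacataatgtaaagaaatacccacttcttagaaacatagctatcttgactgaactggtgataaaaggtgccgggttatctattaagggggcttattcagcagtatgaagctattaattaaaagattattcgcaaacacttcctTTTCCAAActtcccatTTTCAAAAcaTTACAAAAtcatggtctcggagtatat
S100a9, chr3:90695722-90695971, minus strand: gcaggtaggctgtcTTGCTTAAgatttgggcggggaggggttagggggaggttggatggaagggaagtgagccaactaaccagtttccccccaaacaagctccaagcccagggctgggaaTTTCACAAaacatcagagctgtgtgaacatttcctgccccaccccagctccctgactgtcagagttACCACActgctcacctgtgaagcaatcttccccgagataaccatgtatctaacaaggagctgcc
In Elane the capitals are the PU.1 letters. In Mmp8, Chil3 and S100a9 every match is on the opposite strand, so the C/EBP letters appear there as TTNCNNAA. The Mmp8 match farthest from the start is PU.1 and the other matches are C/EBP. The Chil3 matches are C/EBP, and the S100a9 matches are C/EBP with RUNX nearest the start.

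**Figure D1:**
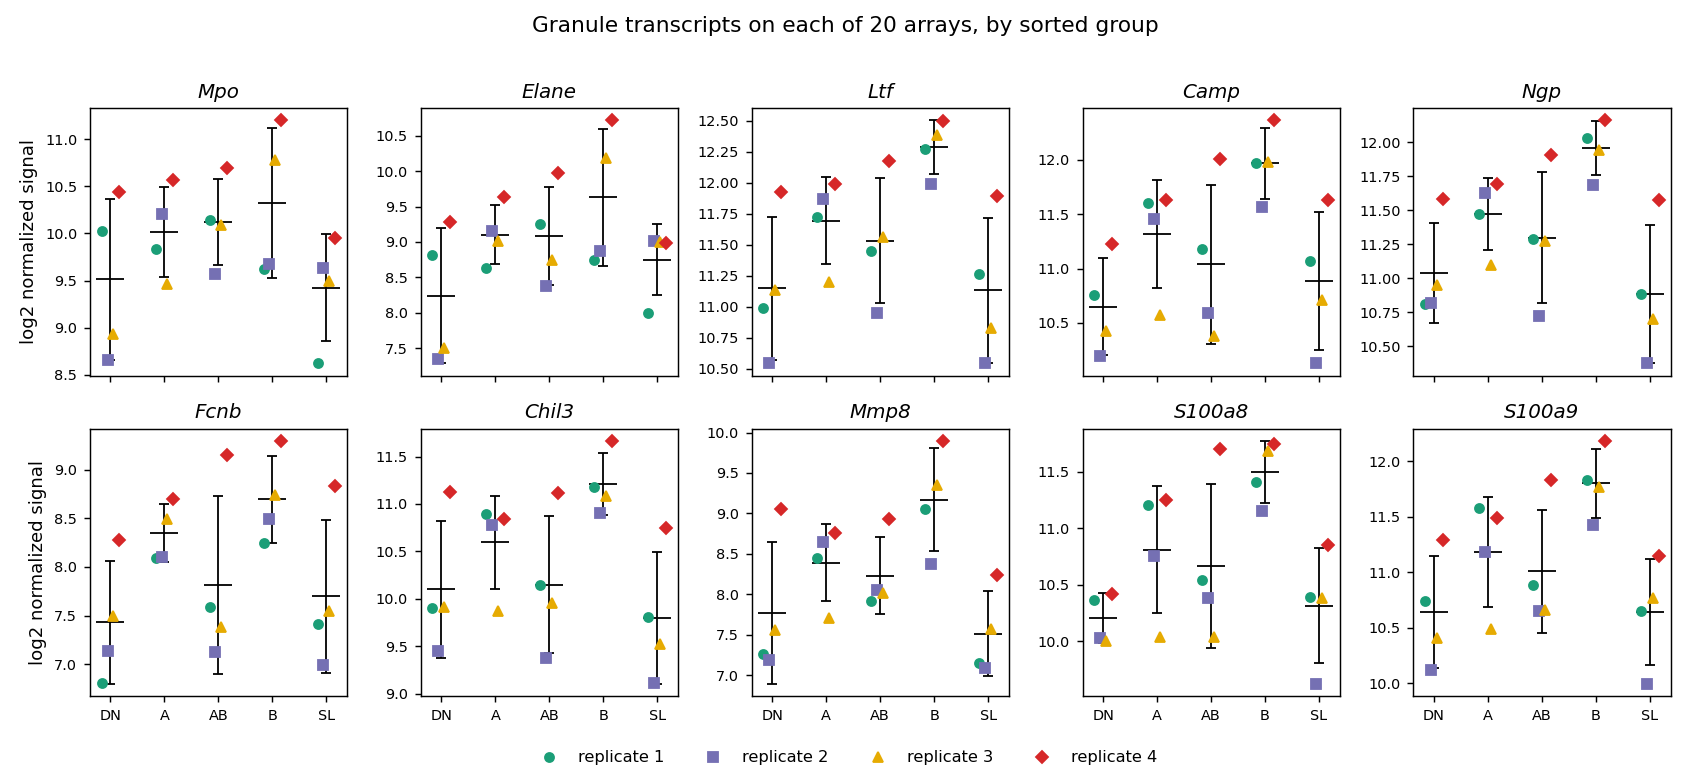
Log2 normalized signal (vertical axes, scaled per gene) of the 10 members on each of the 20 arrays, by sorted group on the horizontal axis. Symbols give the replicate number, horizontal lines the group mean and bars the SD (n = 4). B had the highest mean of every member, and B replicate 4 was the highest array of all 10.

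All 10 transcripts had their highest group mean in B and their highest single array in B replicate 4. The signal of that array exceeded the lowest array of the same gene by 3.44-fold for Ngp to 10.24-fold for Elane. The lowest array was SL replicate 2 for 6 members, DN replicate 2 for Elane and Ltf, DN replicate 1 for Fcnb and SL replicate 1 for Mpo. For 9 members A was next after B in mean, followed by AB, with DN and SL last in either order. Mpo ran B, AB, A, DN, SL. No step between neighbouring groups in these orders passed the test, with adjusted p between 0.106 and 0.999. Arrays of neighbouring groups overlapped at every step but B over A for Ltf and Chil3, where 14.0% of all genes had every B array above every A array.

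Over the 5 groups, limma's F test called 7 members, where it called 50.6% of all genes. The 7 were Ltf, Camp, Ngp, Chil3, Mmp8, S100a8 and S100a9, with Ngp lowest in adjusted p (F = 5.74, adjusted p = 0.00849). Fcnb (adjusted p = 0.0741), Elane (0.137) and Mpo (0.242) were not called. Without B replicate 4 the count was 4, where 50.2% of all genes were called, and without B and AB replicates 3 and 4 it was 2, where 46.3% were.

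B against DN asks what goes with the PDGFRb gate among cells gated as Sca-1- and PDGFRa-. Mean Pdgfra also differed, at 9.03 in B and 7.87 in DN, and its part was not tested. All 10 members had a higher mean in B, as did 53.2% of all genes. The difference was called for 9 of them, all but Mpo, where 24.4% of all genes were called higher in B. The members' median difference was 1.21 (2.32-fold) against 0.03 over all genes. The members ranged from 0.81 for Mpo to 1.40 for Mmp8.

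Mmp8 was at 9.05, 8.37, 9.35 and 9.90 on B replicates 1 to 4. On DN replicates 1 to 4 it was at 7.27, 7.19, 7.56 and 9.06. The groups overlapped only through DN replicate 4, which lay above B replicates 1 and 2. The difference was 1.40 ± 0.39 (adjusted p = 0.00601), or 2.63-fold.

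S100a8 was at 11.41, 11.15, 11.69 and 11.75 in B and at 10.37, 10.03, 10.001 and 10.42 in DN. Every B array was above every DN array, and DN varied little (SD 0.22). The difference was 1.30 ± 0.31 (adjusted p = 0.00214). Its partner S100a9 was at 11.83, 11.43, 11.77 and 12.18 in B and at 10.74, 10.12, 10.41 and 11.29 in DN. The groups did not overlap, and S100a9 was higher by 1.16 ± 0.30 (adjusted p = 0.00383).

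Among the secondary granule genes, Ltf was at 12.27, 11.99, 12.39 and 12.50 in B and at 10.99, 10.54, 11.13 and 11.92 in DN. B replicate 2 cleared DN replicate 4 narrowly, so the groups did not overlap. Ltf was higher in B by 1.14 ± 0.30 (adjusted p = 0.00389). Camp lay between 11.57 and 12.36 in B and between 10.19 and 11.22 in DN, again without overlap, a difference of 1.32 ± 0.34 (adjusted p = 0.00388). Ngp lay between 11.69 and 12.16 in B and between 10.81 and 11.58 in DN, without overlap, and was higher by 0.91 ± 0.25 (adjusted p = 0.00483). Groups did not overlap for 5 members in all, where 18.5% of all genes had every B array above every DN array.

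Chil3 was at 11.18, 10.90, 11.09 and 11.67 in B and at 9.91, 9.45, 9.91 and 11.13 in DN, where replicate 4 reached into the range of B. It was higher by 1.11 ± 0.39 (adjusted p = 0.0239). Fcnb was at 8.24, 8.49, 8.74 and 9.30 in B and at 6.81, 7.14, 7.50 and 8.28 in DN, where replicate 4 passed B replicate 1. It was higher by 1.26 ± 0.41 (adjusted p = 0.0171).

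Within B the primary granule genes had the widest spread of the members, with an SD of 0.97 for Elane and 0.79 for Mpo. Elane was at 8.75, 8.88, 10.18 and 10.72 in B and at 8.82, 7.35, 7.51 and 9.28 in DN, so B replicates 3 and 4 stood above DN and B replicates 1 and 2 stood among its arrays. Its difference was 1.39 ± 0.47 (adjusted p = 0.0195). Mpo was at 9.63, 9.68, 10.78 and 11.20 in B and at 10.02, 8.66, 8.93 and 10.44 in DN. B replicates 1 and 2 lay below DN replicates 1 and 4, and the difference of 0.81 ± 0.41 (95% interval -0.05 to 1.66) was not called (adjusted p = 0.117). The probe sets of Mpo disagreed, with 1 of 3 called (1.10 ± 0.43, adjusted p = 0.0446, with each probe set tested on its own). Each of the other members with several probe sets (Ltf, Fcnb and S100a8) was called on all of them. Of all 12357 probe sets, 44.3% were called in either direction.

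Same-numbered arrays gave the same direction for 8 members in all 4 pairs. Mpo and Elane were higher in B in 3 of 4, with replicate 1 lower by 0.40 for Mpo and 0.07 for Elane. The count of 9 fell to 6 without B replicate 4, where 44.8% of all genes were called in either direction. Chil3 was not called without B replicate 4 or any of DN replicates 1 to 3, Elane without B replicate 3 or 4 or DN replicate 2 or 3, and Fcnb without B replicate 4 or DN replicate 1 (adjusted p up to 0.0836). Without B and AB replicates 3 and 4 it was 5 (Ltf, Camp, Ngp, S100a8 and S100a9), the same members whose groups did not overlap, where 38.8% of all genes were called in either direction.

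**Figure D2:**
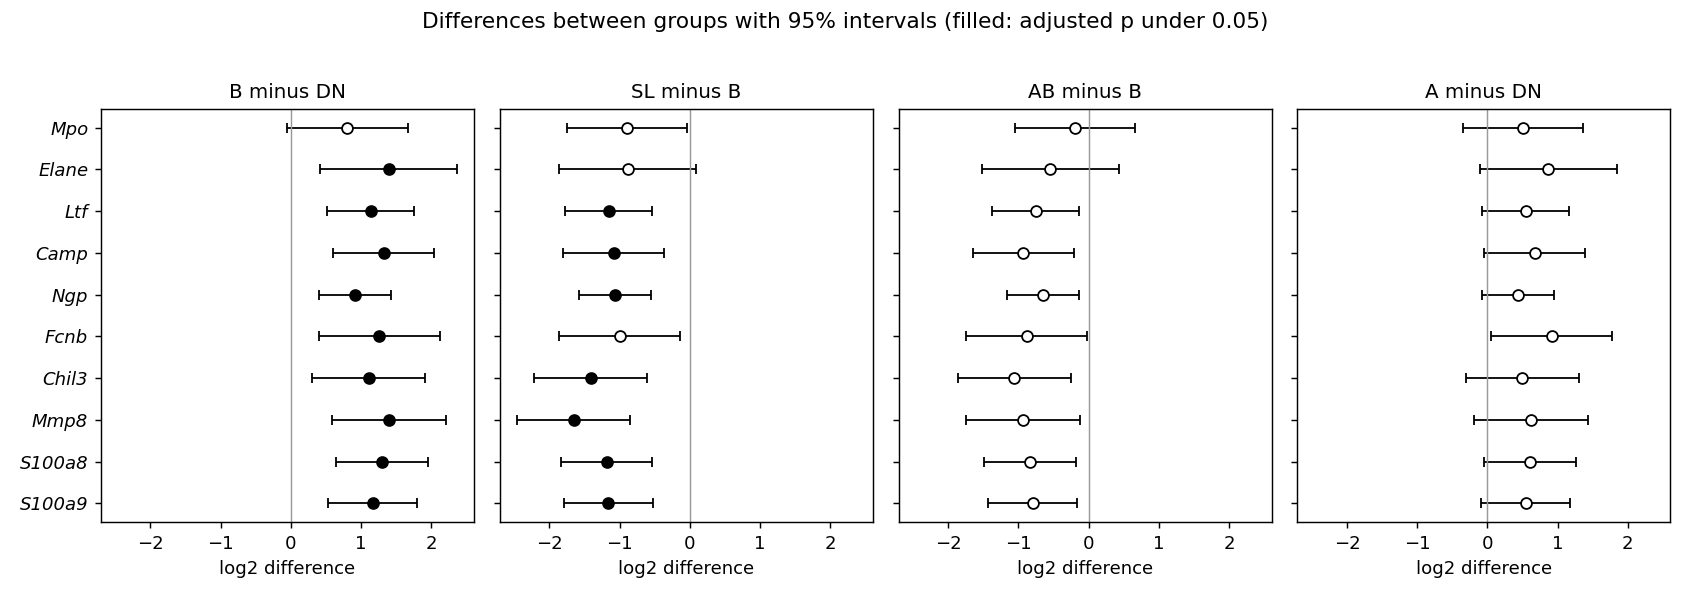
Log2 differences (horizontal axes) of the 10 members in 4 comparisons, with 95% intervals from limma (n = 4 arrays per group). Filled points have an adjusted p under 0.05: 9 members in B against DN, 7 in SL against B, and none in AB against B or A against DN.

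SL against B compares groups gated as PDGFRa- that differ in the Sca-1 gate. They may also differ in PDGFRb, as that gate is unclear for SL. Ly6a on B replicates 3 and 4, at 10.18 and 10.90, was near its SL range of 10.30 to 10.79. 7 members were lower in SL, where 6.86% of all genes were lower. These were Ltf, Camp, Ngp, Chil3, Mmp8, S100a8 and S100a9, and the median of the 10 members was -1.12 (2.17-fold higher in B) against 0.01 over all genes.

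Mmp8 was at 7.16, 7.10, 7.57 and 8.24 in SL, all below the lowest B array of 8.37, and differed by -1.65 ± 0.39 (adjusted p = 0.00659). Ngp was at 10.89, 10.38, 10.70 and 11.58 in SL, all below B, and differed by -1.07 ± 0.25 (adjusted p = 0.00567). Chil3 was at 9.81, 9.11, 9.53 and 10.75 in SL and differed by -1.41 ± 0.39 (adjusted p = 0.0183). These 3 transcripts had no SL array within the range of B.

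Ltf (10.55 to 11.89 in SL), S100a8 (9.63 to 10.85) and S100a9 (9.996 to 11.15) also lay below every B array, which made 6 members without overlap, against 8.4% of all genes with every array lower. Their differences were -1.16 ± 0.30 for Ltf (adjusted p = 0.0126), -1.19 ± 0.31 for S100a8 (adjusted p = 0.015) and -1.16 ± 0.30 for S100a9 (adjusted p = 0.0136). Camp was lower by 1.08 ± 0.34 (adjusted p = 0.0436) although SL replicate 4, at 11.63, passed B replicate 2. Mpo (-0.90 ± 0.41, adjusted p = 0.196), Elane (-0.88 ± 0.47, adjusted p = 0.286) and Fcnb (-0.996 ± 0.41, adjusted p = 0.141) were not called.

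The calls depended on which arrays entered. Without SL replicate 2, the lowest SL array for 8 members, the calls of Ngp and Mmp8 were left, where 9.48% of all genes were called in either direction. Ltf then differed by -0.96 (adjusted p = 0.0569) and Chil3 by -1.18 (adjusted p = 0.0759). Without every array numbered 1 or every array numbered 3 no member was called by limma, where 6.07% and 7.26% of all genes were, and Ltf differed by -1.20 and -1.02. Camp was called in only 10 of the 20 fits that left out 1 array, with adjusted p up to 0.171, and Chil3 was not called without B replicate 4 or SL replicate 3 either (adjusted p up to 0.0759). Without B and AB replicates 3 and 4, only Ngp was called, where 11.5% of all genes were, a share close to 1 of 10.

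In the other 8 pairs no member was called by limma. In AB against B, 8 members had an unadjusted p under 0.05, where 9.91% of all genes did and 1.52% were called. All 10 had a lower mean in AB, with a median difference of -0.81, while 51.4% of all genes had a higher mean in AB. This is a pair of groups whose same-numbered arrays deviated together over all genes, and fitted with a block for the number 8 members were called, all but Mpo and Elane, where that fit called 3.52% of all genes. Their adjusted p lay between 0.0101 (Chil3) and 0.0489 (S100a8). Without B and AB replicates 3 and 4, and without the block, 0 members were called, where 1.49% of all genes were. Chil3 was at 10.15, 9.37, 9.96 and 11.11 in AB, a difference from B of -1.06 ± 0.39 (adjusted p = 0.274 without the block). Each AB array of Chil3 was below the B array of the same number, while AB replicate 4 passed B replicates 2 and 3. Mpo differed by -0.20 ± 0.41 between AB and B (95% interval -1.05 to 0.66, adjusted p = 0.984).

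AB against A showed 0 members called and 0 at an unadjusted p under 0.05, where 32.9% and 41.8% of all genes were. The median difference was -0.17, and with the block, in the other pair of groups whose numbers deviated together, Fcnb was called, 1 of 10 members where that fit called 36.4% of all genes. Fcnb was at 7.59, 7.13, 7.39 and 9.15 in AB and at 8.10, 8.10, 8.49 and 8.70 in A. AB replicate 4 was above all A arrays and the other AB arrays were below them.

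B against A showed a median of 0.60, with the mean in B above that in A for all 10 members and for 54.8% of all genes. No member was called, where 29.7% of all genes were, and 1 had an unadjusted p under 0.05 (40.0% of all genes). The member was S100a8, which differed by 0.69 ± 0.31 (adjusted p = 0.106). In the authors' deposited table of A against B, 8 members had a q-value under 0.05, where 38.1% of its 8439 genes did. That table holds another set of genes, gives q-values in place of the adjusted p used here, and lists Fcnb, Ltf and Mpo on other probe sets. The reason for the unlike counts was not tested. In the same table Ltf had the lowest q-value of the members (0.0122), and Mpo (0.197) and Elane (0.171) were above the threshold. The authors' deposited tables of the other 4 pairs listed 0 members at a q-value under 0.05, where 45.0% (A against AB), 1.06% (B against AB), 2.56% (DN against A) and 61.7% (DN against SL) of their genes were.

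A against DN had a median of 0.58, with the mean in A above that in DN for all 10 members and 50.1% of all genes, 0 called (3.53% of all genes) and 1, Fcnb, at an unadjusted p under 0.05 (15.8% of all genes). Fcnb differed by 0.91 ± 0.41 (adjusted p = 0.285). SL against A had a median of -0.57, 0 called (32.6% of all genes) and 2, Mmp8 and Ngp, at an unadjusted p under 0.05 (41.8%). AB against DN (median 0.39), SL against AB (-0.36) and SL against DN (-0.01) had 0 called and 0 at an unadjusted p under 0.05. In these 3 pairs 46.1%, 9.34% and 45.2% of all genes were called, and 52.5%, 19.1% and 51.7% had an unadjusted p under 0.05.

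The difference that goes with the PDGFRb gate was +1.21 (median of members) among cells gated as PDGFRa-, B over DN. Among cells gated as PDGFRa+, AB over A, it was -0.17. The test of the difference between these differences gave a median of -1.43 and called 0 members, where 0.668% of all genes were called. With the replicate number as a block it called 8 members, all but Mpo and Elane, where 3.94% of all genes were called. Same-numbered arrays of DN did not all deviate with those of A, AB or B, with lowest correlations of -0.05, 0.06 and 0.02. The same 8 were called without the arrays numbered 4 and without a block, where 1.71% of all genes were. Without the arrays numbered 1, 2 or 3 the count was 0, where 0.0876%, 0.175% and 0.153% of all genes were called. Without B and AB replicates 3 and 4 it was also 0, where 0.734% were. On all arrays without the block 9 members, all but Mpo, had an unadjusted p under 0.05, where 11.9% of all genes did. Fcnb was largest at -1.79 ± 0.58 (adjusted p = 0.18), and Mpo smallest at -0.70 ± 0.58 (adjusted p = 0.72).

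**Figure D3:**
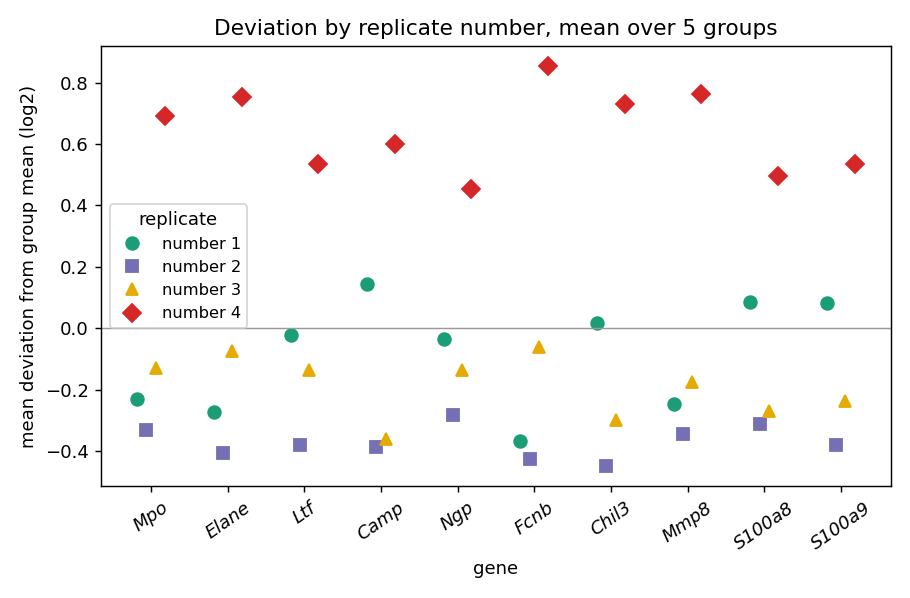
Mean deviation of same-numbered arrays from their group mean over the 5 groups (vertical axis, log2) for each of the 10 members. Number 4 lies between 0.45 and 0.85 above the group means for every member, and numbers 2 and 3 lie below 0.

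The arrays numbered 4 carried the most granule transcript in nearly every group. Replicate 4 was the highest array of its group in 47 of the 50 combinations of group and member, and in all 5 groups for 7 members. The exceptions were Chil3 and S100a9 in A, where replicate 1 was highest, and Elane in SL, where replicate 2 was. Averaged over groups, arrays numbered 4 lay above the group mean by 0.45 (Ngp) to 0.85 (Fcnb), with a member median of 0.65, and arrays numbered 2 below it with a median of -0.38.

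With group and replicate number in the same model, the F test on the number called 7 members, where it called 5.26% of all genes. Fcnb had the largest F (22.4, adjusted p = 0.00153). Chil3 (F = 14.2, adjusted p = 0.00691) and Camp (F = 14.1, adjusted p = 0.00704) came next. S100a8 (adjusted p = 0.0523), Mpo (0.0802) and Elane (0.0947) were not called.

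Fcnb shows the pattern in values. For DN, A, AB, B and SL in turn, its arrays numbered 4 were at 8.28, 8.70, 9.15, 9.30 and 8.83. Its arrays numbered 2 were at 7.14, 8.10, 7.13, 8.49 and 6.998 in the same order. The DN array numbered 4 thus lay above the B array numbered 1, at 8.24. Without the arrays numbered 4 in all groups, the F test on the number called 0 members by limma, where 1.47% of all genes were called. The call of Ltf was lost without AB replicate 4 (Ltf adjusted p up to 0.0527), as was that of Ngp, and both were also lost without DN replicate 4. Either array left out took the count to 5, where 3.41% and 3.91% of all genes were called.

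**Figure D4:**
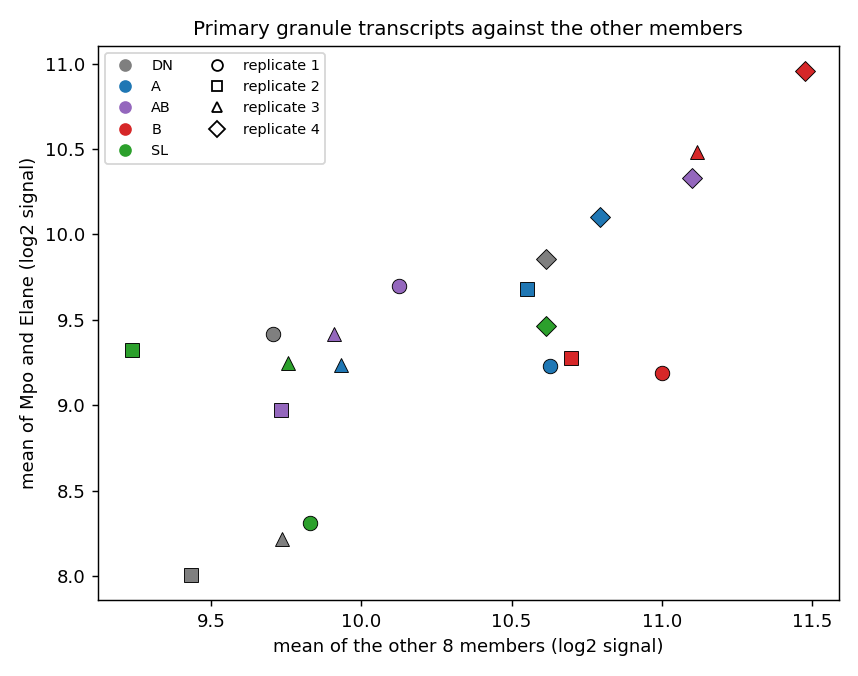
Mean log2 signal of Mpo and Elane (vertical axis) against the mean of the other 8 members (horizontal axis) on the 20 arrays. Colours give the group and symbols the replicate number. B replicates 1 and 2 lie far to the right but near 9.2 on the vertical axis, and B replicates 3 and 4 lie at the upper right.

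The primary granule transcripts varied apart from the rest. Across the 20 arrays, which share a platform and normalization, Mpo and Elane correlated at r = 0.927, and the other 8 members correlated among themselves at r = 0.796 to 0.978. Correlations of Mpo or Elane with the other 8 were lower, at 0.643 to 0.80. After removal of the group means the range among the 8 was 0.676 to 0.966, and that between the sets was 0.484 to 0.762.

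B showed this most plainly. The mean of Mpo and Elane was 9.19, 9.28, 10.48 and 10.96 on B replicates 1 to 4, while the mean of the other 8 was 11, 10.70, 11.12 and 11.48. In these means B replicate 1 was below every A array for Mpo and Elane, narrowly (9.19 beside 9.23 on A replicate 1). For the other 8 members its mean was above every A array. Single genes did not all follow. On B replicate 1, Mpo (9.63) was above A replicate 3 (9.46) and Elane (8.75) above A replicate 1 (8.63). Fcnb on B replicate 1 (8.24) was below A replicates 3 and 4 (8.49 and 8.70). Ly6a on B replicates 1 to 4 was at 7.01, 7.10, 10.18 and 10.90, and its part in the pattern was not tested.

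The other serine proteases of the primary granule split B in the same way. Prtn3, which encodes proteinase 3, was at 7.58, 7.48, 9.14 and 9.31 on B replicates 1 to 4. Ctsg, which encodes cathepsin G, was at 7.39, 7.04, 9.24 and 9.69. In both, replicates 3 and 4 were high and replicates 1 and 2 low.

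SL replicate 2 went the other way. It had the lowest SL value of 8 members, yet its Elane (9.02) was the highest of SL and its Mpo (9.63) the next to highest. Prtn3, at 7.95, was likewise the highest of SL on that array. DN replicate 1 was the array of DN with the lowest Fcnb and Ngp, beside Mpo at 10.02 and Elane at 8.82.

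Genes outside the members were ranked by their correlation with the mean of the 10 members over the 20 arrays, as a description. The 10 highest ran from Laptm5 (r = 0.978), a lysosomal membrane protein of blood cells, to Pglyrp1 (r = 0.966), a peptidoglycan-binding granule protein. Between them were Gmfg, Arhgdib, Fpr2, Cd177, Rac2, Cybb, Alox5ap and Wfdc21. In all, 84 genes (0.921% of those measured) reached r = 0.9 or more and 164 (1.80%) reached 0.8.

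These genes include parts of the neutrophil's machinery. Cybb encodes the catalytic subunit of the phagocyte NADPH oxidase, Rac2 a GTPase that activates it, Fpr2 a receptor for formylated peptides and Alox5ap a protein needed for leukotriene synthesis. Cd177, a surface antigen of neutrophils, was at 8.98, 8.81, 9.14 and 9.46 in B and at 7.41, 7.24, 7.37 and 8.45 in DN. Its B arrays lay above all DN arrays. As these genes were picked for following the member mean, this is a description.

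**Figure D5:**
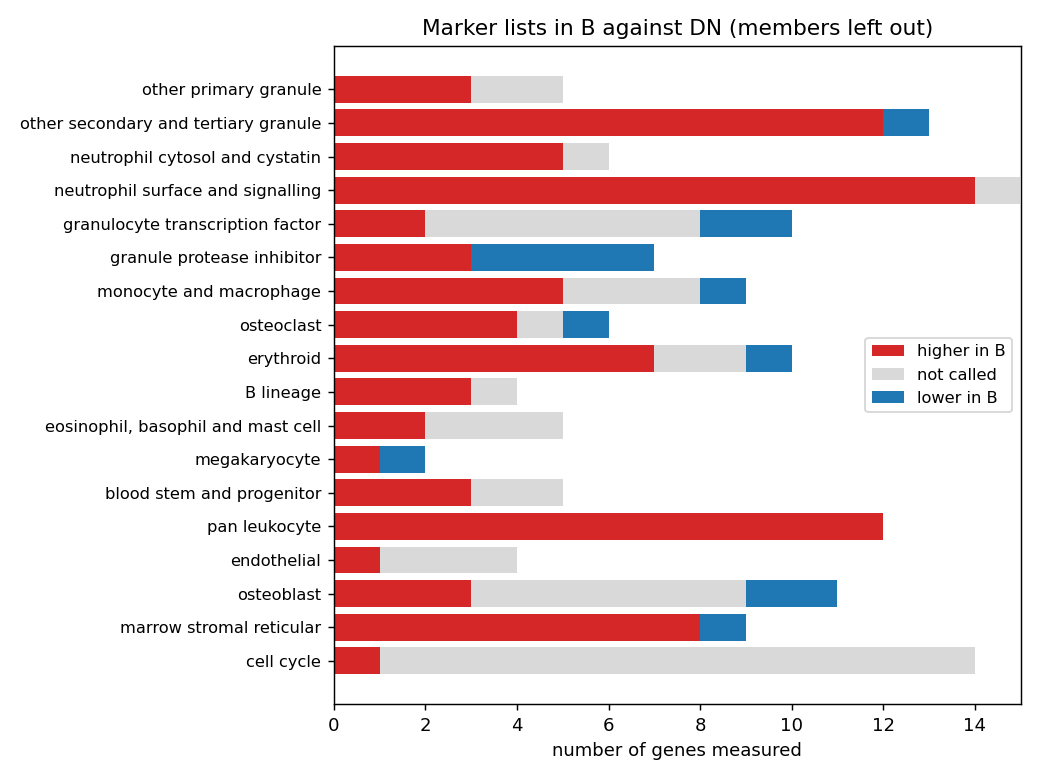
Number of measured genes of each marker list (horizontal axis) that were higher in B, lower in B or not called against DN, with the 10 members left out. All 12 measured pan leukocyte genes and 14 of 15 neutrophil surface and signalling genes were higher in B, and 1 of 14 cell cycle genes was.

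Lists of related genes, which share some members with each other, were read off the same fit. By its name, the authors' filter kept a gene that passed in any group or array, so a listed gene could enter through B alone. Rac2, Ly6d and Fcrla had means of 7.09, 7.17 and 6.80 in B and at most 6.63, 6.51 and 6.23 elsewhere. How far the filter shaped the list counts was not tested. Over all genes 24.4% were called higher and 21.3% lower in B than DN, and 5.61% higher and 6.86% lower in SL than B. Of the genes listed beside the primary granule members 3 of 5 measured were higher in B than DN and none was lower, with a median of 1.17. Igsf6 (1.01, adjusted p = 0.000934) and Ms4a3 (1.23, adjusted p = 0.0131) were called, which encode membrane proteins of myeloid cells rather than granule contents. Of the serine proteases of the primary granule, Prtn3 (1.17, adjusted p = 0.0242) was called and Ctsg (1.18, adjusted p = 0.109) was not. Of other secondary and tertiary granule genes 12 of 13 were higher, with a median of 1.30, and Chil1 was lower by 1.48 (adjusted p = 3.66e-05). In SL against B, 11 of these 13 were lower and none was higher.

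Some of the listed granule genes are also made outside neutrophils. Hp, which encodes haptoglobin, was highest in AB (12.17 ± 0.21, SD, n = 4) and at 10.94 ± 0.32 in B, whereas every member had its highest mean in B. Chil1, a chitinase-like gene, was lower in B (9.62 ± 0.54) than in DN (11.10 ± 0.14), and its A arrays lay between 11.12 and 11.15. Mmp9, a gelatinase of tertiary granules and of osteoclasts, followed the members more closely (r = 0.868), at 10.62 ± 0.40 in B and 9.15 ± 0.60 in DN.

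Of neutrophil surface and signalling genes 14 of 15 were higher in B than DN, with a median of 1.29, and 13 of 15 were lower in SL than B. Csf3r, Fpr1 and Selplg of that list stayed under an intensity of 200 on every array. Hdc, the histidine decarboxylase of granulocytes, was higher in B than DN by 1.41 (adjusted p = 0.000399). Of the cytosolic list 5 of 6 were higher, with a median of 1.31.

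Of 10 measured transcription factors of the granulocyte lineage, 2 were higher and 2 lower in B than DN, close to the shares of all genes, with a median of 0.09. Cebpa, a C/EBP factor also found in fat and stromal cells, was highest in AB at 8.79 ± 0.25 and was at 7.84 ± 0.07 in B. It was higher in B than DN by 0.57 (adjusted p = 0.00487). Lef1 was lower in B than DN by 1.95 (adjusted p = 1.65e-08) and Klf4 by 1.13 (adjusted p = 0.000481). In A their means were 9.28 and 10.83, beside 9.59 and 10.84 in DN. Of genes that inhibit granule proteases or matrix enzymes, 3 of 7 were higher and 4 lower, with Serpina1a, an inhibitor of elastase, lower by 4.34 (adjusted p = 8.06e-10) at 9.18 in DN and 4.84 in B.

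Transcripts of other blood cells moved with the members in part. The summed intensity of 12 pan leukocyte genes ran from 5238 to 11124 across B arrays and from 2336 to 5763 across DN arrays. It was 3409 to 6761 for A, 3158 to 8528 for AB and 1889 to 4781 for SL. All 12 were higher in B than DN and all 12 lower in SL than B, and their median correlation with the member mean was 0.956. The F test on the replicate number called all 12, where it called 5.26% of all genes. It also called 8 of 10 erythroid, 5 of 9 monocyte and macrophage and 2 of 4 B lineage genes. Of osteoblast genes it called 1 of 11, and of marrow stromal reticular genes 0 of 9. Ptprc, which encodes the leukocyte antigen CD45, was at 8.86, 7.73, 8.49 and 9.43 in B and at 7.33, 5.68, 6.71 and 8.48 in DN. In both groups replicate 4 was the highest and replicate 2 the lowest.

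Of erythroid genes 7 of 10 were higher in B than DN and 1 lower, and their summed intensity was 1396 to 3407 in DN and 2880 to 6338 in B. Slc4a1, the anion exchanger of red cells, was higher by 1.52 (adjusted p = 0.00148). Of B lineage genes 3 of 4 were higher, with sums of 603 to 939 in DN and 1218 to 2106 in B, and Ighm was higher by 1.36 (adjusted p = 0.0299). Of monocyte and macrophage genes 5 of 9 were higher and 1 lower, with sums of 2341 to 3401 in DN and 2483 to 4405 in B. The part of cells of these types in the member differences was not tested.

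Of marrow stromal reticular genes 8 of 9 were higher in B than DN and 1 lower, with a median of 1.78, so that most rose from DN to B as the members did. Between AB and B they differed from the members, with 8 of 9 higher in AB, where 1.12% of all genes were. They summed to 10613 to 16117 in AB and 5636 to 6430 in B, whereas all 10 members had their highest mean in B. Cxcl12, a chemokine that retains blood cells in marrow, was at 12.54 in AB and 11.39 in B, and its correlation with the member mean was 0.441, or -0.01 after removal of group means. Of osteoblast genes 3 of 11 were higher and 2 lower in B than DN, close to the shares of all genes, with a median of 0.11. Dmp1, an osteocyte matrix gene, differed by 0.46 between B and DN (adjusted p = 0.127).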

How the data were processed

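Per the labels, total RNA was labelled with biotin for expression arrays. The normalization method is not given in the sources used here. Deposited were log2 normalized signal of 24539 probe sets and a filtered table of linear intensity for 12440 of them, and both tables agree within 0.0075 log2 units. Per the file headers, the authors' comparison tables hold log2 differences, folds, p-values and q-values.

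Log2 values of the filtered probe sets were analysed, leaving out 83 probe sets without a symbol. The probe set with the highest mean stood for each of the 2431 genes with several, beside 6698 genes with 1. Tests were run with limma 3.58.1 (R 4.3.3) in a model of group means (15 residual and 4.34 prior degrees of freedom, median residual SD 0.185), two-sided, over 10 pairs, the interaction and the 5 groups, and in a model with the replicate number added. The fit was tested on simulated data. Arrays of a group correlated at r = 0.951 to 0.983.

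Replicate numbers are shared by the groups. Same-numbered arrays deviated together over all genes, with every correlation of deviations above 0.1, for A with AB (0.185 to 0.398) and AB with B (0.17 to 0.422), so the blocked result stands beside those pairs. This pairing comes from the data and not from a statement in the labels.

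Members, lists and the rule for named genes were chosen with earlier results of these data known. The rule took the members, up to 4 genes of each list with the largest F over groups, the 10 genes most correlated with the member mean, and the gate transcripts. A gene that met it is not reported here. Promoters came from RefSeq, and all 10 members matched by symbol. Alternatives were the replicate block, arrays left out singly or by number, quantile normalization, other filters, the mean over probe sets, a variance trend and fits of the compared groups alone.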

Additional observations from a re-analysis of the deposited data

Results flagged for a closer look

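Among the 50 combinations of member and group, 4 held an array far from the other 3 of its group, by Dixon's 95% criterion on the gap as a share of the range. Chance flags about 1 in 20 groups. Elane was at 8.00 on SL replicate 1, below the other SL arrays at 8.98 to 9.02. Camp was at 10.58 and Chil3 at 9.87 on A replicate 3, each the lowest of A. Mmp8 was at 8.93 on AB replicate 4, above the other AB arrays, which lay between 7.92 and 8.06.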

How the results depend on the processing

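The number of members called depended on which arrays entered. Without every array numbered 1, 2 or 3, SL against B had 0, 3 and 0 called (6.07%, 7.76% and 7.26% of all genes) and the 5 groups 0, 3 and 1 (37.4%, 41.9% and 43.0%). B against DN had 5 called without number 1 (36.1%) and 5 without number 3 (38.2%). Without number 4 the counts were 1 in A against DN (2.10% of all genes), AB against A (27.2%), B against A (27.5%) and AB against DN (39.1%), 4 in AB against B (2.21%), 5 in SL against A (26.5%), 8 in the interaction (1.71%) and 0 for the replicate number (1.47%). With the replicate number as a block they were 1 in A against DN (5.98% of all genes), 1 in AB against A (36.4%), 7 in B against A (34.6%), 8 in AB against B (3.52%), 6 in SL against A (36.8%) and 8 in the interaction (3.94%), and in the other pairs and the 5 groups the block left the count within 1.5 times. For pairs of groups other than AB with A and AB with B, the lowest correlation of same-numbered deviations was -0.05 to 0.09, and 3 to 7 of the 8 arrays of a pair correlated best with their own number. Fits of only the groups compared gave 2 in B against A (26.0%) and 1 in SL against A (33.9%). Without B and AB replicates 3 and 4, chosen after seeing the data, they were 5 in B against DN (38.8%), 1 in SL against B (11.5%) and 2 over the 5 groups (46.3%). The same fit gave 0 in B against A (26.0%), AB against B (1.49%) and the interaction (0.734%).

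Leaving out each array in turn gave 6 to 10 in B against DN (40.7% to 46.2% of all genes). In SL against B it gave 2 to 8 (9.11% to 13%). Over the 5 groups it gave 4 to 9 (47.8% to 51.2%), and for the replicate number 5 to 9 (3.41% to 6.51%). It gave 0 to 4 in SL against A (27.6% to 33.6%) and the interaction (0.263% to 1.67%), and 0 to 2 in AB against DN (41.4% to 46.8%). It gave 0 to 1 in AB against A (27.6% to 33.7%), AB against B (0.865% to 2.13%) and B against A (24.7% to 30.6%). It gave 0 in A against DN (1.96% to 3.74%), SL against AB (6.55% to 9.98%) and SL against DN (40.3% to 45.7%). Differences of single members were recomputed for B against DN, SL against B, B against A, A against DN and AB against B, where signs turned only for Mpo and Elane. The other pairs were not followed in this way, and S100a9 in SL against DN, at 0.001, had no settled sign. Mpo in B against A was -0.037 without number 3 and -0.37 without B and AB replicates 3 and 4, where Elane was -0.29. In AB against B, Mpo was 0.20 (adjusted p = 1) and Elane 0.001 without those arrays, and Mpo ran from -0.43 to 0.095 with single arrays left out, above 0 only without B replicate 4. The cause was not tested. Quantile normalization, which moved array medians by at most 0.057, both filters, the mean over probe sets and the variance trend left every count within 1.5 times. Signal over background was not given, so the members' low values (Fcnb and Mmp8) carry an unknown share of background.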

Other observations

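Prg2 and Epx, transcripts of eosinophils, had their group means in the order B, A, AB, DN and SL, as Ltf, Ngp, Chil3 and Mmp8 did, but differed from the members within SL. Prg2, which encodes the major basic protein, was at 8.63, 9.65, 9.70 and 10.69 in B and at 7.93, 7.20, 9.30 and 4.18 in SL. Epx, which encodes eosinophil peroxidase, was at 7.15, 8.73, 8.70 and 9.82 in B and at 6.11, 5.48, 7.83 and 4.76 in SL. SL replicate 4, the highest SL array of 9 of the 10 members, was the lowest SL array for both. In the other groups replicate 4 was the highest array for Prg2, as for most members. Epx was higher in B than DN by 1.71 (adjusted p = 0.0346), and Prg2 by 1.49 (adjusted p = 0.12) was not called. Over the 20 arrays their correlation with the member mean was 0.44 for Prg2 and 0.57 for Epx, given as a description.

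Of 5 measured blood stem and progenitor genes 3 were higher in B than DN (Procr, Cd34 and Lmo2) and none was lower, with a median of 1.36, and 3 were called on the replicate number. Lmo2 had its highest mean in B, at 7.72, with 7.58 in SL, and correlated with the member mean at 0.713. Cd34 was highest in SL, at 10.21, and lowest in DN, at 6.201, and Procr was at 8.27 in SL and 8.19 in B. On B replicates 1 to 4 Cd34 was at 6.315, 5.844, 9.314 and 10.078, beside 5.415 to 7.055 in DN. Its difference was 1.69 (adjusted p = 0.0467). B replicates 1 and 2 thus lay within the range of DN, and B replicates 3 and 4, with their high Ly6a, lay above it. Cell cycle genes such as Top2a were at 8.32 in DN and 7.89 in B (difference -0.43, adjusted p = 0.243), and 7 of 14 were lower in SL than B.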
